A study of Mus musculus with 12 samples.

Results

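The nuclear genes of respiratory complexes III, IV and V were taken as all protein-coding genes of the GENCODE mouse annotation whose symbol begins with Uqcr, with Cox and a digit, or with Atp5, together with Cyc1 and Cycs. This rule gave 57 genes out of 54193 in the files, and 53 of them passed the filter on low counts and were tested among 18017 genes. The members comprised 9 complex III subunits (Cyc1 included), Cycs, 10 widespread complex IV subunits, 7 tissue isoforms of complex IV, 9 complex IV assembly factors, the supercomplex factor Cox7a2l and 19 entries for ATP synthase. Cox5b-ps is annotated as protein-coding although its symbol marks it as a pseudogene, and it met the rule. The 4 genes that were not tested were Cox8b, Cox8c, Cox5b-ps and a second, short Atp5po gene model (ENSMUSG00000116933) that overlaps Donson. A further 14 genes had a matching symbol but were not protein-coding and were left out.

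Complex III passes electrons from ubiquinol to cytochrome c, complex IV (cytochrome c oxidase) passes them on to oxygen, and complex V (ATP synthase) uses the resulting proton gradient to make ATP. Their catalytic cores are encoded in part by mitochondrial DNA, whereas the supernumerary subunits and all assembly factors are nuclear and are imported. Some complex IV subunits exist as a widespread form and a form restricted to muscle, lung, testis or other tissues. Dopaminergic neurons of the substantia nigra are known for a high energy demand, and defects of respiration are a long-standing theme in Parkinson's disease.

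RNA was sequenced from laser-microdissected substantia nigra of 12 mice aged 1 week and labelled male, with 3 mice in each of 4 groups. OF1-En1+/- mice carry 1 functional copy of Engrailed 1 (En1), a homeobox gene of midbrain dopaminergic neurons that was disrupted by a LacZ insertion, on the outbred SwissOF1 background, and OF1 WT mice have both copies. C57-En1+/- mice carry the same allele after repeated backcrossing to C57Bl/6J, and C57 WT mice are their wild-type counterparts. Each library came from 1 mouse, named here by its label (SW21, SW22 and SWB for OF1-En1+/-, SW31, SW7 and SWG for OF1 WT, C5713, C572 and C575 for C57-En1+/-, and C5710, C572S and C5743 for C57 WT).

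The libraries held 13538864 to 168741283 estimated reads, of which the members took 1.58 to 2.84%. Normalized counts are estimated reads per gene scaled for depth. En1 did not follow the genotype labels, with 0, 701 and 0 normalized counts in the OF1-En1+/- mice SW21, SW22 and SWB, against 9.55, 15.4 and 1.10 in the OF1 WT mice. In C57-En1+/- mice it was at 0, 9.67 and 0, against 0.866, 1038 and 11.2 in C57 WT mice. Dopaminergic markers set the same libraries apart, since the summed count of 7 markers was 398003 in SW22 and 600764 in C572S but between 1555 and 13713 in the other 10 mice. Mouse C572, labelled male, had 1368 normalized counts of Xist and 0 of Ddx3y, and it also had the highest sum of oligodendrocyte markers (201517, against at most 113395 elsewhere). Results are therefore also given without SW22, C572S and C572. In tissue of mixed cells, fewer cells of a type and less RNA per cell cannot be told apart.

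Levels between genes were compared as TPM, which is scaled for transcript length. The widespread structural subunits were among the most abundant members, and the assembly factors were far lower. The short Atp5po model reached at most 0.122 TPM and was at 0 in all but 1 library. Together the members held 4.86 to 7.64% of all TPM per library. Atp5mk, a small membrane subunit that helps hold ATP synthase dimers together, had the highest mean (3994 ± 835 TPM, SD over 12 mice), followed by the catalytic F1 subunit Atp5f1b (3306 ± 564 TPM). Atp5mk had 4618, 2586 and 3894 TPM in OF1-En1+/- mice, against 4377, 4343 and 4136 in OF1 WT mice, and 5044, 5352 and 3652 in C57-En1+/- mice, against 3487, 2735 and 3700 in C57 WT mice. SW22 and C572S were its lowest libraries. In complex V the lowest well-detected subunit was Atp5mc2, at 131 ± 37.0 TPM, although it encodes the same mature c-ring protein as Atp5mc1 (2958 ± 545 TPM) and Atp5mc3 (2524 ± 505 TPM). Atp5mc2 reached at most 220 TPM in a library, while the other two had at least 1786 TPM.

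In complex III, Uqcrq, a small supernumerary subunit, was highest at 2642 ± 652 TPM, and the Rieske iron-sulfur protein Uqcrfs1 was lowest at 285 ± 68.1 TPM. Uqcrfs1 had 255, 240 and 273 TPM in OF1-En1+/- mice, against 416, 174 and 315 in OF1 WT mice, and 244, 249 and 228 in C57-En1+/- mice, against 313, 367 and 347 in C57 WT mice. The C57 groups did not overlap in TPM. In normalized counts, the scale of the tests, they did, with 7789, 8846 and 6370 in C57-En1+/- mice, against 7308, 9157 and 9753 in C57 WT mice. The core proteins did not overlap, with 674 to 1193 TPM for Uqcrc1 and 212 to 370 TPM for Uqcrc2 in the 12 mice. Cycs, the mobile electron carrier, had 176 ± 43.7 TPM. Among widespread complex IV subunits the means ran between 797 ± 161 TPM for Cox7b and 2923 ± 500 TPM for Cox8a. The 9 complex IV assembly factors spanned 24.2 ± 5.63 TPM for Cox15, which makes heme a, to 196 ± 39.4 TPM for Cox17, the copper chaperone of the intermembrane space. The median widespread subunit of complex IV exceeded the median assembly factor by 14.1 to 31.8 times in the 12 libraries. The ratio was 17.8 to 31.8 in OF1-En1+/- and 21.7 to 30.3 in OF1 WT mice, and at least 20.7 in C57-En1+/- and 14.1 to 21.6 in C57 WT mice, so that the ranges overlapped in both pairs.

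**Figure D1:**
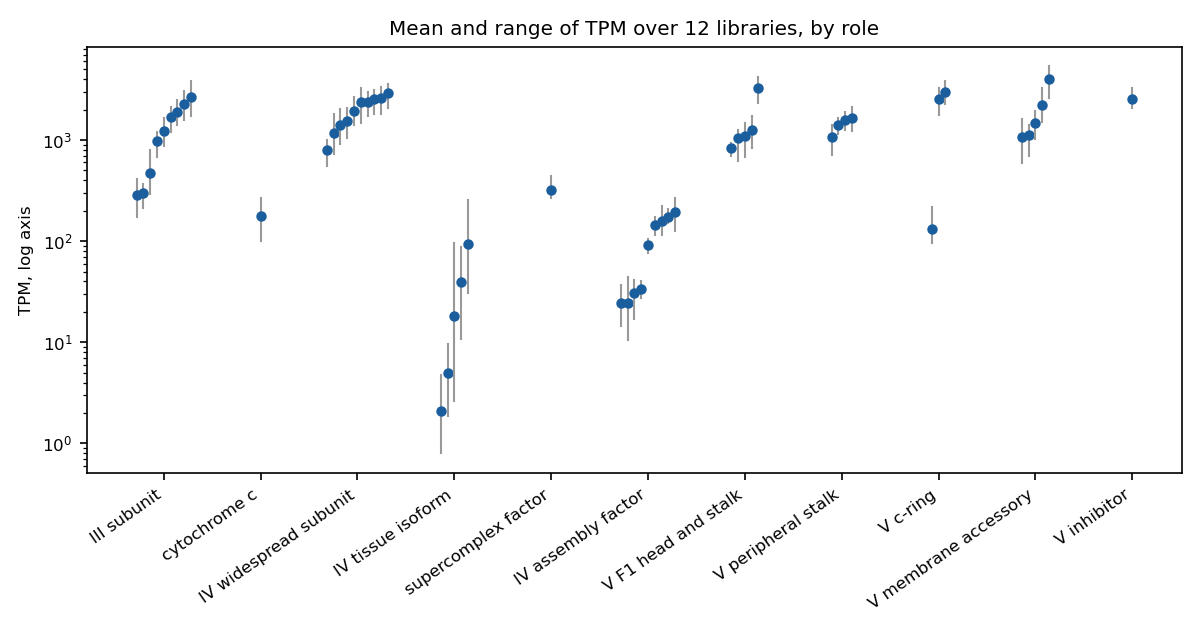
Mean TPM over 12 libraries (points, log axis) and lowest to highest library (bars) of each member, grouped by role on the horizontal axis. Widespread complex IV subunits lie at or above 797 TPM and complex IV assembly factors at or below 196 TPM, where Cycs (176) and Atp5mc2 (131) also lie. Members with a library at 0 (Cox8b, Cox8c and the short Atp5po model) and Cox5b-ps are not drawn.

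The first comparison asked what En1 hemizygosity did on the C57 background. The widespread subunits were mostly higher in the C57-En1+/- mice, but no member passed the test. The median log2 fold change of the 53 tested members was 0.71, beside 0.00 for all genes tested, and 48 of 53 were positive, beside 50.3% of all genes. At an adjusted p of 0.05 edgeR called 0 of 53 members and 0% of all genes, with a smallest adjusted p of 0.520, and DESeq2 called 0 members and 0.411% of all genes. At an unadjusted p under 0.05, edgeR gave 32 members, beside 8.89% of all genes. Of these 31 were higher and Cox18 alone was lower, beside 5.35% and 3.54% of all genes. For 18 members every C57-En1+/- mouse lay above every C57 WT mouse, beside 7.44% of all genes in that direction, and Cox18 alone lay below, beside 6.93%.

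The 3 smallest p-values belonged to Cox6b1, Cox6a1 and Cox7a2, small supernumerary subunits of complex IV. Cox6b1 (ENSMUSG00000036751, chromosome 7 of GRCm39, 30316282 to 30325616) had 22312, 29570 and 15730 normalized counts in the C57-En1+/- mice C5713, C572 and C575. The C57 WT mice had 10879 (C5710), 10325 (C572S) and 12607 (C5743). C572 was the highest of the 6 mice and the groups did not overlap, with a log2 fold change of 1.00 (SE 0.254, edgeR adjusted p = 0.520). Cox6a1 (chromosome 5, 115483701 to 115487050) had 24394, 26179 and 17209 counts in C57-En1+/- mice, against 11854, 10867 and 14596 in C57 WT mice. Its log2 fold change was 0.86 (SE 0.226, edgeR adjusted p = 0.520). Cox7a2 gave 15433, 20876 and 11089 counts in C57-En1+/- mice, against 7813, 7048 and 8800 in C57 WT mice, and a log2 fold change of 1.00 (SE 0.269, edgeR adjusted p = 0.520). In all 3 genes C575 was the lowest C57-En1+/- mouse and C572 the highest. In OF1 mice the genotype groups overlapped for each of them. Cox6b1 had 19260, 11769 and 18303 counts in OF1-En1+/- mice, against 15235, 20504 and 19625 in OF1 WT mice. Cox6a1 had 19938, 13141 and 19618 counts in OF1-En1+/- mice, against 17269, 23397 and 21139 in OF1 WT mice. Cox7a2 had 13755, 7820 and 13155 counts in OF1-En1+/- mice, against 11317, 15733 and 15564 in OF1 WT mice.

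Markers of some other cell types, but not of all, moved with the C57 genotype groups as well. The summed count of 6 endothelial markers was 4457 to 7067 in C57-En1+/- mice, against 3578 to 4279 in C57 WT mice, and that of 8 mural cell markers was 4651 to 7304, against 2809 to 3536. Neither overlapped, and the group mean was higher in C57-En1+/- mice for all 6 and all 8 genes. It was also higher for 6 of 6 oligodendrocyte markers (sums of 10519 to 201517, against 12423 to 33223) and 5 of 5 microglial markers (2500 to 4097, against 2514 to 2657), with overlapping sums. The oligodendrocyte sum of 201517 was that of C572, beside 21776 in C5713 and 10519 in C575, the last below every C57 WT mouse. For astrocyte markers the group mean was higher for 3 of 5 (sums of 26837 to 45248, against 29029 to 35419), also with overlap. The group mean was higher for 0 of 7 dopaminergic markers (1557 to 13713, against 3647 to 600764). The sum of 600764 was that of C572S, while C5710 and C5743 had 3647 and 6591, within the range of the C57-En1+/- mice. Mog was at 0 in C575, and no other marker of these lists was at 0 in a library. Their part in the members' values was not tested.

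By role, the 10 widespread complex IV subunits had a median log2 fold change of 0.85 and all were positive, and the 5 membrane accessory subunits of ATP synthase (Atp5me, Atp5mf, Atp5mg, Atp5mj and Atp5mk) had 0.87, between 0.84 and 1.05. The 3 c-ring genes had a median of 0.78 and the peripheral stalk 0.63, while the 5 F1 subunits had 0.43. Complex III fell into parts. Its 5 small subunits (Uqcr10, Uqcr11, Uqcrb, Uqcrh and Uqcrq) lay between 0.70 and 0.93, whereas the larger core and catalytic proteins Cyc1, Uqcrc1, Uqcrc2 and Uqcrfs1 lay between -0.19 and 0.36. The 9 complex IV assembly factors had a median of 0.31 with a range of -0.54 to 0.78. Among them the short transcripts Cox16, Cox17 and Cox20 lay between 0.47 and 0.78. The longer Cox14, of 1005 bases effective length, had 0.66. Cox18, the insertase that carries the tail of COX2 across the inner membrane, was at the low end.

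**Figure D2:**
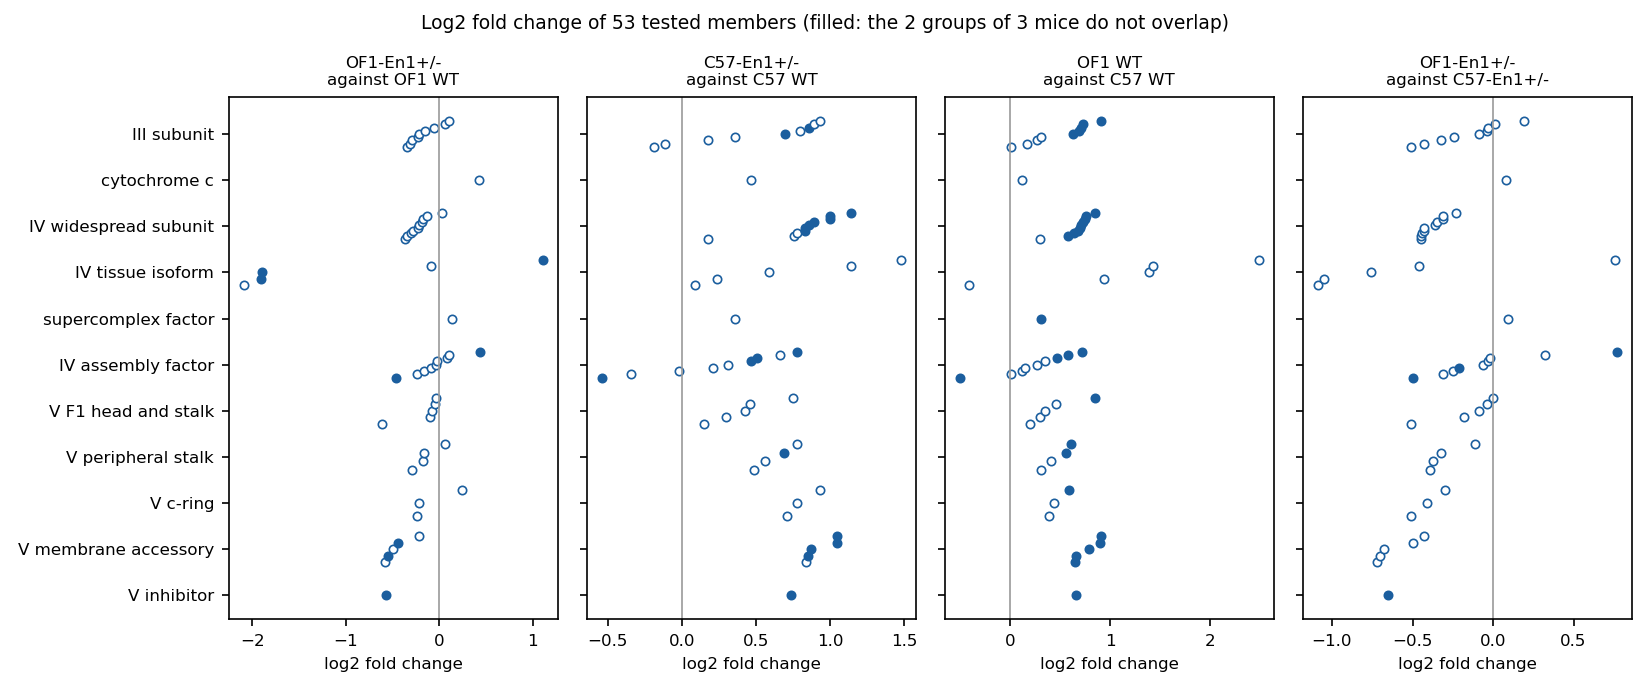
Log2 fold change (horizontal axes, each panel with its own scale) of the 53 tested members by role, in 4 comparisons of 3 mice with 3. Filled points are members whose 2 groups do not overlap. In C57-En1+/- against C57 WT the median was 0.71 and in OF1 WT against C57 WT 0.59, while the other 2 panels have medians of -0.18 and -0.32.

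In OF1 mice the members lay slightly below zero. The median log2 fold change of OF1-En1+/- against OF1 WT was -0.18, beside -0.01 for all genes, and 11 of 53 members were positive, beside 49.0% of all genes. edgeR called 0 of 53 members (0% of all genes, smallest adjusted p = 0.446), and DESeq2 called 0 members and 1.12% of all genes. Unadjusted p-values under 0.05 were found for 5 members, beside 9.29% of all genes. These were Cox6b2, Cox7a1, Atp5if1 and Cox20 with negative and Cox15 with positive values, beside 4.59% and 4.70% of all genes. In 6 members (Cox6b2, Cox7a1, Atp5if1, Atp5mf, Atp5mj and Cox20) every OF1-En1+/- mouse lay below every OF1 WT mouse, beside 8.00% of all genes, and in Cox15 and Cox4i2 every one lay above, beside 7.76%. The widespread complex IV subunits had a median of -0.23 and the complex III subunits -0.22, with no non-overlapping member in either.

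Between the wild types, the members were mostly higher in OF1. OF1 WT against C57 WT gave a median of 0.59, beside -0.01 for all genes, with 51 of 53 positive values, beside 49.3% of all genes. edgeR called 0 of 53 members beside 1.02% of all genes (smallest adjusted p = 0.248), and DESeq2 called 0 members beside 2.53%. The unadjusted p was under 0.05 for 29 members, beside 8.54% of all genes. They were 28 higher members and Cox15 as lower, beside 4.56% and 3.99% of all genes. The groups did not overlap for 28 members in the direction of OF1 (7.57% of all genes) and for Cox15 in the direction of C57 (7.26%). Uqcrq (chromosome 11, 53318749 to 53322047) had the smallest p. It had 13115, 17802 and 16469 normalized counts in OF1 WT mice, against 7742, 7584 and 9918 in C57 WT mice, a log2 fold change of 0.91 (SE 0.270, edgeR adjusted p = 0.248). Cox6a1 followed with 17269, 23397 and 21139 counts in OF1 WT mice, set against the same C57 WT values as above, for a log2 fold change of 0.73 (SE 0.226, edgeR adjusted p = 0.287). Atp5mf, a membrane subunit of ATP synthase, had 11820, 13361 and 13910 counts in OF1 WT mice, against 6796, 5294 and 8867 in C57 WT mice (log2 fold change 0.90, SE 0.281, edgeR adjusted p = 0.293). The hemizygous mice had 16818, 9643 and 16271 counts of Uqcrq in OF1-En1+/-, against 16125, 18113 and 9709 in C57-En1+/-. For Atp5mf they had 10501, 5968 and 10169 in OF1-En1+/-, against 12836, 16193 and 8578 in C57-En1+/-. Both genes overlapped between the hemizygous groups. The C57 WT mice are shared with the comparison of genotypes in C57.

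Between the hemizygous groups the members leaned the other way. OF1-En1+/- against C57-En1+/- gave a median of -0.32, beside -0.02 for all genes, with 8 of 53 positive values, beside 47.7% of all genes. edgeR called 0 of 53 members beside 0.966% of all genes (smallest adjusted p = 0.185), with 5 members at an unadjusted p under 0.05, beside 8.13% of all genes. Cox18 was higher, beside 3.76% of all genes, and Atp5if1, Cox20, Atp5mj and Atp5mk lower, beside 4.36%. DESeq2 called Cox18 alone, beside 2.46% of all genes. Cox18 was also the only member in which every OF1-En1+/- mouse lay above every C57-En1+/- mouse (6.41% of all genes), while Atp5if1, Cox19 and Cox20 lay below (6.74%). Averaged over both genotypes, OF1 against C57 gave a median of 0.13, beside -0.02 for all genes, with 46 of 53 positive values, beside 46.8%. edgeR called 0 members, beside 2.01% of all genes, and 2 members (Cox18 and Uqcrq, both higher) had an unadjusted p under 0.05, beside 8.59% of all genes and 4.17% in that direction, while DESeq2 called 0 members beside 3.62%. Uqcrq had a log2 fold change of 0.43 here (SE 0.190, edgeR adjusted p = 0.535) and Cox15 one of -0.28 (SE 0.138, edgeR adjusted p = 0.640).

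The difference between the 2 genotype effects was tested as an interaction, coded as the effect in C57 minus that in OF1. Its median over the members was 0.95, beside 0.01 for all genes, and 50 of 53 values were positive, beside 50.5%. edgeR called 0 members and 0% of all genes, with 30 members at an unadjusted p under 0.05, beside 7.22% of all genes. All 30 were positive (4.42% of all genes) and none negative (2.80%), whereas DESeq2 called Atp5if1 alone, beside 0.233% of all genes. The 4 comparisons share groups in pairs, so their medians are not independent of each other.

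Per library, the median deviation of the members from their own mean log2 level over 12 mice placed the single mice. It was 0.38, 0.54 and -0.18 in the C57-En1+/- mice C5713, C572 and C575, against -0.52, -0.52 and -0.14 in the C57 WT mice C5710, C572S and C5743. In OF1-En1+/- mice SW21, SW22 and SWB it was 0.18, -0.42 and 0.14, against 0.12 in SW31, 0.21 in SW7 and 0.26 in SWG of OF1 WT. C575 and C5743 lay next to each other across the C57 groups, and SW22 stood below both of its group mates. Without SW22, C572S and C572 the medians were 0.47 for C57-En1+/- against C57 WT, -0.02 for OF1-En1+/- against OF1 WT, 0.52 for OF1 WT against C57 WT and 0.02 for OF1-En1+/- against C57-En1+/-. The last of these is thus no longer negative, and the interaction median was 0.47. Members with an unadjusted p under 0.05 numbered 10 in C57-En1+/- against C57 WT and 20 in OF1 WT against C57 WT in that reduced set, beside 4.04% and 6.09% of all genes, and edgeR called 0 members in any comparison.

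The shift of the members moved with transcript length. Most members have short transcripts, with a median effective length of 334 bases, against 2124 bases for all genes tested. In C57-En1+/- against C57 WT, the median log2 fold change was 0.79 for the 38 members of up to 800 bases and 0.21 for the 15 longer ones. Other genes followed the same order, with 0.37 for 2450 genes of up to 800 bases and -0.04 for 15514 longer genes, and 0.52 for the 568 of up to 300 bases. In OF1 WT against C57 WT the members had 0.68 and 0.20 and the other genes 0.32 and -0.05. The order was turned in OF1-En1+/- against OF1 WT, with -0.23 and -0.04 for short and long members and -0.17 and 0.02 for other genes. In OF1-En1+/- against C57-En1+/- the values were -0.43 and -0.03 for members and -0.21 and 0.00 for other genes. Across the 53 members the correlation of log2 fold change with log2 length was r = -0.61 in C57-En1+/- against C57 WT and -0.60 in OF1 WT against C57 WT, a description only, since the members share the libraries. A trend on transcript length was also fitted, using only genes that averaged 50 or more normalized counts. With this trend removed, the medians became 0.16 in C57-En1+/- against C57 WT and 0.00 in OF1-En1+/- against OF1 WT. They became 0.18 in OF1 WT against C57 WT and -0.04 in OF1-En1+/- against C57-En1+/-. In that analysis 43 of 53 members were positive in C57-En1+/- against C57 WT and 44 in OF1 WT against C57 WT, beside 49.8% and 49.4% of all genes. An unadjusted p under 0.05 was found for 5 and 3 members, beside 7.12% and 7.83% of all genes, which is near the background. The part that transcript length or RNA quality played in the shift was not tested.

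**Figure D3:**
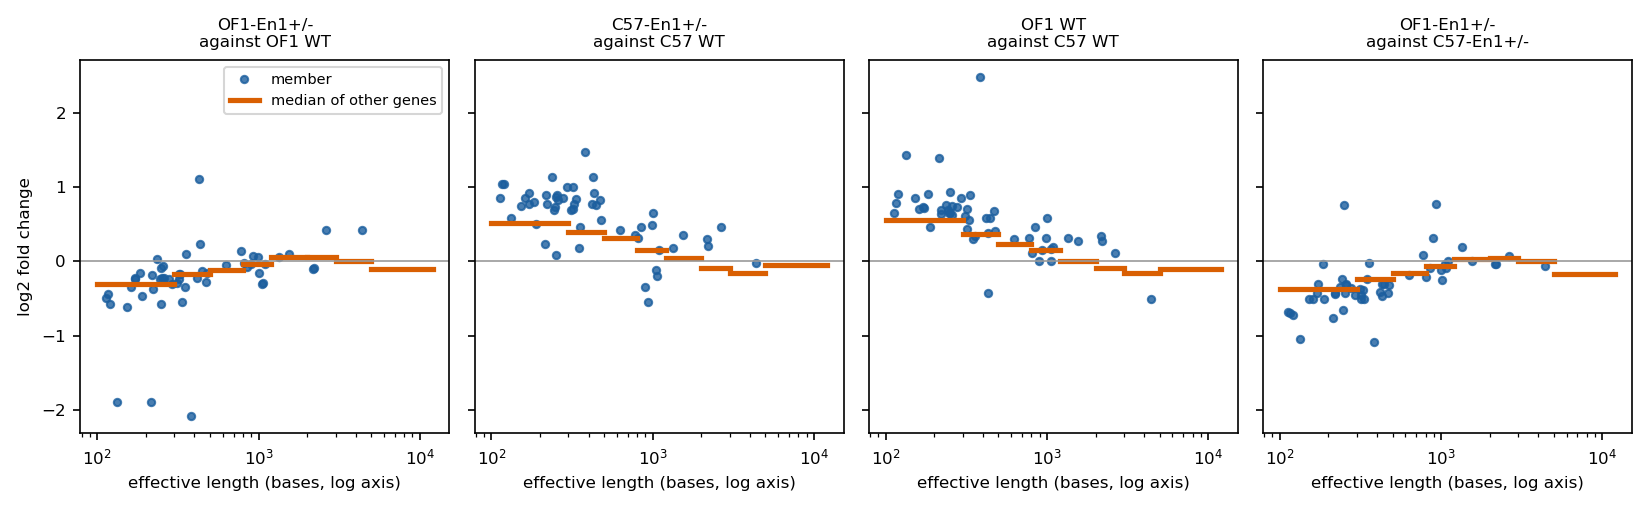
Log2 fold change of the 53 tested members (points) against mean effective transcript length on a log axis, with the median of all other genes per length class (bars), in 4 comparisons. In C57-En1+/- against C57 WT short members and short other genes both lie above zero (medians 0.79 and 0.37 up to 800 bases), and in OF1-En1+/- against OF1 WT both lie below (-0.23 and -0.17).

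In C57-En1+/- against C57 WT, where most subunits were positive, 3 of 9 assembly factors were negative, and Cox18 was the lowest. Cox18 (ENSMUSG00000035505, chromosome 5, 90362567 to 90371931) had 906, 687 and 1074 normalized counts in OF1-En1+/- mice, against 552, 513 and 502 in C57-En1+/- mice. The C57-En1+/- mice were tightly grouped and low. The log2 fold change was 0.77 (SE 0.211), with an edgeR adjusted p of 0.185 and a DESeq2 adjusted p of 0.0146. C57 WT mice had 744, 691 and 841 counts, so C57-En1+/- against C57 WT gave -0.54 (SE 0.210), where nearly all subunits were positive. OF1 WT mice had 876, 845 and 808. Averaged over genotypes, OF1 against C57 gave 0.46 (SE 0.148, edgeR adjusted p = 0.234). With the length trend removed, OF1-En1+/- against C57-En1+/- gave 0.83 with an edgeR adjusted p of 0.0968. Without SW22, C572S and C572 the smallest edgeR adjusted p of any member in this comparison was 0.268. Cox15 (chromosome 19, 43721693 to 43741612), the longest member transcript on average, had 3137, 2922 and 2844 counts in OF1-En1+/- mice, against 2507, 1878 and 2205 in OF1 WT mice. The groups did not overlap, and the log2 fold change was 0.43 (SE 0.195, edgeR adjusted p = 0.534). C57-En1+/- mice had 2586, 3532 and 3132 counts of Cox15 and C57 WT mice 2557, 3826 and 3014. Of its 7616 exon bases, Cox15 shares 1961 with Entpd7 and 471 with Cutc on the other strand. The libraries are unstranded, so its counts carry this limit. Exon bases shared with a gene on the other strand were found for 27 members, Atp5mj among them.

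Atp5if1, Atp5mj and Cox20 had genotype differences of opposite direction in the 2 strains, without overlap in either. Atp5if1 (chromosome 4, 132257215 to 132262823) encodes the inhibitor that blocks ATP hydrolysis by ATP synthase at low pH. It had 15275, 12355 and 14789 counts in OF1-En1+/- mice, against 15698, 26702 and 20581 in OF1 WT mice, for a log2 fold change of -0.57 (SE 0.221, edgeR adjusted p = 0.494). In C57-En1+/- mice it had 21418, 26693 and 18254, against 12580, 11751 and 15416 in C57 WT mice, for 0.74 (SE 0.221). The interaction was 1.31 (SE 0.313), with an edgeR adjusted p of 0.655 and a DESeq2 adjusted p of 0.0490. Between hemizygous groups, OF1-En1+/- against C57-En1+/- gave -0.65 (SE 0.221, edgeR adjusted p = 0.391). Atp5if1 shares exon bases with an antisense gene, Gm12999, and the libraries carry no strand. With the length trend removed its interaction was 0.39.

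Atp5mj, another small membrane subunit of ATP synthase, had 6595, 3869 and 7474 counts in OF1-En1+/- mice, against 7566, 8548 and 8184 in OF1 WT mice. Its counts were 9047, 13712 and 6339 in C57-En1+/- mice, against 4102, 4524 and 5418 in C57 WT mice. The interaction was 1.49 (SE 0.408, edgeR adjusted p = 0.655). Cox20, which stabilises newly made COX2, had 731, 650 and 867 counts in OF1-En1+/- mice, against 902, 1100 and 1080 in OF1 WT mice. In C57-En1+/- mice it had 1070, 1083 and 1029, against 781, 655 and 794 in C57 WT mice. The interaction was 0.97 (SE 0.273, edgeR adjusted p = 0.655), and 0.00 with the length trend removed. Most of its exon bases overlap Hnrnpu on the other strand, so its counts are uncertain.

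Of the tissue isoforms, 5 were detected well enough to be tested, and each made up a small share of its pair. As a share of the summed TPM of isoform and partner, Cox6b2 was 1.47 to 10.9% of the pair with Cox6b1, Cox7a1 0.836 to 4.76% with Cox7a2, Cox6a2 0.119 to 3.60% with Cox6a1, Cox7b2 0.192 to 1.20% with Cox7b, and Cox4i2 0.0287 to 0.158% with Cox4i1. Cox8b, a muscle form, had 1.07 to 2.36 normalized counts in 5 mice and 0 in the others, and Cox8c, a testis form, was above 0 only in SWG and C5743, with 2.20 and 6.70 counts.

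Cox7a1, the heart and skeletal muscle form of subunit VIIa (ENSMUSG00000074218, chromosome 7, 29883569 to 29885503), had 60.2, 61.4 and 90.6 normalized counts in OF1-En1+/- mice, against 265, 165 and 361 in OF1 WT mice. The groups did not overlap, and the log2 fold change was -1.89 (SE 0.604, edgeR adjusted p = 0.446). C57-En1+/- mice had 204, 83.8 and 153, against 78.3, 34.8 and 179 in C57 WT mice. Cox6b2, the testis form of subunit VIb (ENSMUSG00000051811, chromosome 7, 4754789 to 4756093), followed a similar order of mice. It had 333, 298 and 207 counts in OF1-En1+/- mice, against 929, 553 and 1635 in OF1 WT mice. The log2 fold change was -1.90 (SE 0.557, edgeR adjusted p = 0.446), and DESeq2 did not call it either. C57-En1+/- mice had 716, 317 and 382, against 323, 157 and 712 in C57 WT mice. The widespread partners did not show this, with log2 fold changes of -0.30 for Cox7a2 and -0.17 for Cox6b1 in OF1-En1+/- against OF1 WT.

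The summed level of markers of subthalamic and posterior hypothalamic neurons moved with both isoforms in OF1 mice. The summed count of 5 such markers was 651 to 2461 in OF1-En1+/- mice, against 8980 to 23087 in OF1 WT mice, and all 5 had a lower mean in OF1-En1+/- mice. The sum was 5272 in C5713, 986 in C572 and 3680 in C575 of C57-En1+/-, against 5128 in C5710, 5196 in C572S and 22167 in C5743 of C57 WT. Barhl1, Lmx1a and Foxa1 were at 0 in the OF1 WT mouse SW7 and in at least 1 OF1-En1+/- mouse, so these 3 markers overlapped between the OF1 groups and the sum of SW7 is Tac1 (6707) and Nos1 (2273) alone. In SW22 and C572S, the libraries with the highest dopaminergic sums, the sum rested largely on Lmx1a and Foxa1. Lmx1a was at 1301 in SW22 and 1986 in C572S, and Foxa1 at 392 and 1210, while Barhl1 was at 7.09 and 0. Whether Lmx1a and Foxa1 followed dopaminergic neurons in those mice was not tested. The part of the dissected area in the marker and isoform values was not tested.

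Cox6a2, the heart and muscle form of subunit VIa that is also known from parvalbumin interneurons, was high in single mice of different groups. It had 74.3, 33.1 and 190 counts in OF1-En1+/- mice, against 28.6, 1182 and 63.7 in OF1 WT mice. Its counts were 150, 49.4 and 438 in C57-En1+/- mice, against 168, 23.0 and 36.7 in C57 WT mice. SW7 stood apart from every other mouse, and the groups overlapped. Pvalb, which encodes parvalbumin, was at 3266 counts in C575 but at 11.9 in SW7, so the 2 highest mice differed in it. The summed count of 5 markers of fast-spiking GABAergic neurons was 24643 to 66313 in OF1-En1+/- mice, against 4584 to 27381 in OF1 WT mice, and 5997 to 63010 in C57-En1+/- mice, against 7109 to 28824 in C57 WT mice. SW7 had the highest sum of the OF1 WT mice and C575 that of the C57-En1+/- mice, but SW21 had the highest of all with few counts of Cox6a2. Within the list Kcnc1 and Kcnc2 were lowest in SW7 among the OF1 WT mice, and no marker was at 0. The part of these cells in the Cox6a2 values was not tested.

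Cox4i2, the lung form of subunit IV that is also known from pericytes, was low throughout. It had 33.6, 28.3 and 23.8 counts in OF1-En1+/- mice, against 11.9, 17.8 and 9.88 in OF1 WT mice. The groups did not overlap, but the log2 fold change of 1.11 (SE 0.764) did not reach an unadjusted edgeR p under 0.05. C57-En1+/- mice had 60.8, 41.9 and 15.2, against 14.3, 13.9 and 24.8 in C57 WT mice. Mural cell markers summed to 4756 to 8319 counts in OF1-En1+/- mice, against 3442 to 6141 in OF1 WT mice, and to 4651 to 7304 in C57-En1+/- mice, against 2809 to 3536 in C57 WT mice. The group mean was higher in OF1-En1+/- mice for 6 of the 8 markers, with Pdgfrb and Notch3 lower, and in C57-En1+/- mice for all 8. The part of mural cells in the Cox4i2 values was not tested. Cox7b2, a testis form, had 44.2, 26.0 and 57.7 counts in OF1-En1+/- mice, against 40.6, 79.5 and 16.5 in OF1 WT mice, and 13.1, 44.1 and 18.6 in C57-En1+/- mice, against 21.6, 38.0 and 11.8 in C57 WT mice. Its groups overlapped in both pairs.

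The remaining widespread partners were high in every mouse. Cox4i1, subunit IV of most tissues, had 36124, 23233 and 31541 counts in OF1-En1+/- mice, against 30154, 33320 and 35706 in OF1 WT mice, and 39911, 47165 and 25646 in C57-En1+/- mice, against 19672, 18519 and 28246 in C57 WT mice. Cox7b, subunit VIIb, had 11509, 6464 and 10502 counts in OF1-En1+/- mice, against 11190, 11385 and 11940 in OF1 WT mice, and 13018, 15860 and 9386 in C57-En1+/- mice, against 6497, 6882 and 8187 in C57 WT mice. Cox8a, subunit VIII, had 22606, 14809 and 23306 counts in OF1-En1+/- mice, against 18923, 26295 and 25576 in OF1 WT mice, and 27024, 28970 and 19034 in C57-En1+/- mice, against 13150, 12108 and 16815 in C57 WT mice. In C57 mice Cox7b and Cox8a did not overlap between genotypes, while Cox4i1 did, and SW22 was the lowest OF1 mouse for all 3.

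**Figure D4:**
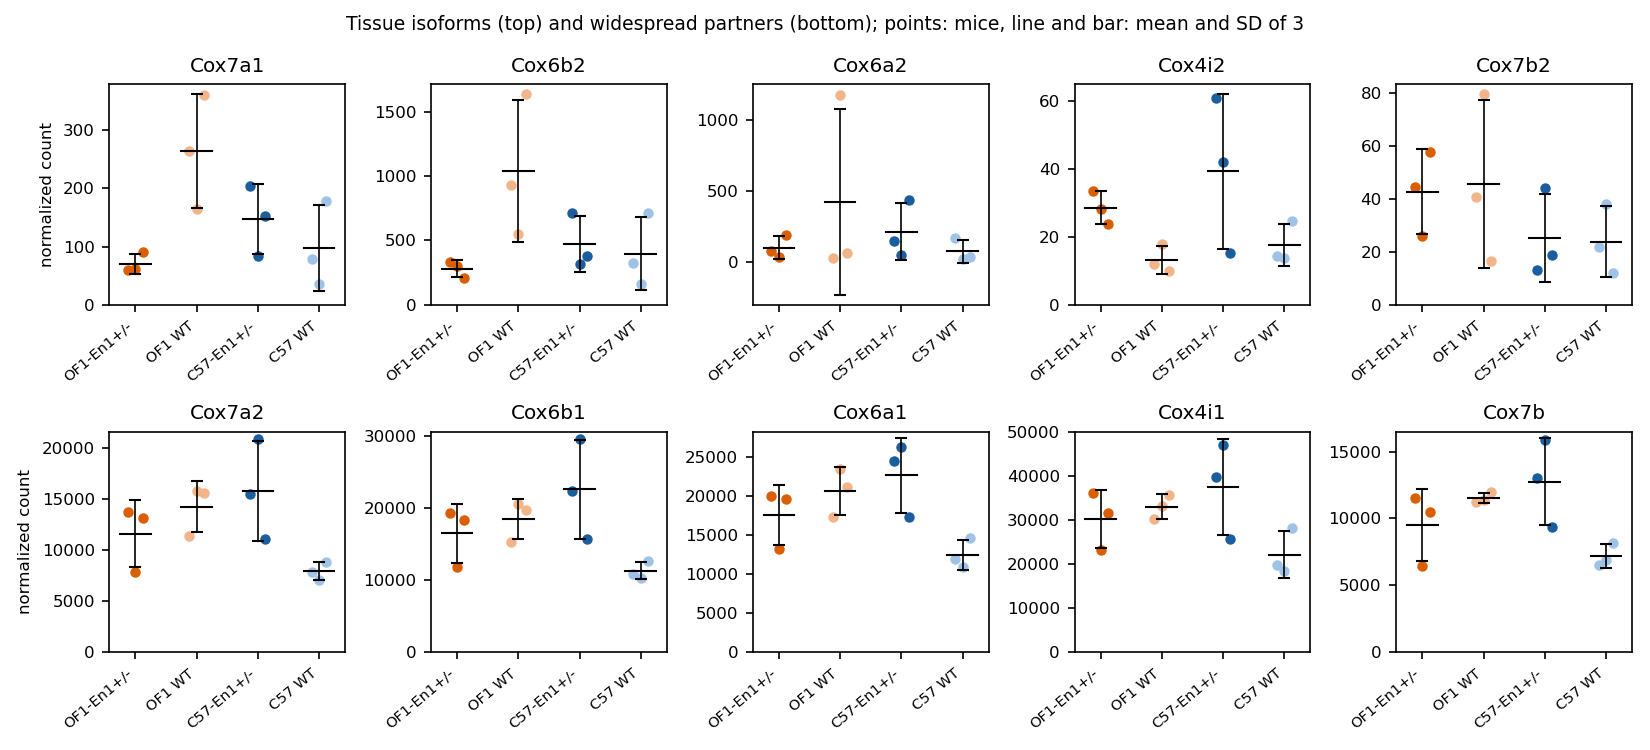
Normalized counts of 5 tissue isoforms (top row) and their widespread partners (bottom row) in OF1-En1+/-, OF1 WT, C57-En1+/- and C57 WT mice, with 1 point a mouse and the mean and SD of 3. Cox7a1 and Cox6b2 are lower in all 3 OF1-En1+/- mice (at most 90.6 and 333) than in the OF1 WT mice (at least 165 and 553), while Cox6a2 stands out in a single OF1 WT mouse (1182).

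Processed copies of 3 member genes passed the test between the strains. The annotation holds 100 pseudogenes that match the coding sequence of 28 members at 85% identity or more, and 5 of them passed the filter on low counts. Gm10039, a copy of Atp5mc1 (chromosome 11, 100252542 to 100252952, minus strand), had 5532, 3536 and 5741 normalized counts in OF1-En1+/- and 5699, 5826 and 4186 in OF1 WT mice. C57-En1+/- mice had 3.29, 5.37 and 11.0 and C57 WT mice 1.30, 0 and 2.17. OF1 against C57 over both genotypes passed the test (edgeR adjusted p = 1.77e-08). Gm6969, a copy of Cox7a2l (chromosome 12, 24688668 to 24689009, minus strand), had 253 to 513 counts in the 6 OF1 mice and 0 to 5.37 in the 6 C57 mice (edgeR adjusted p = 1.53e-05). Gm5436, a copy of Atp5po on chromosome 12, had 311 to 708 counts in 5 OF1 mice but 2.39 in SW31, against 2.14 to 7.52 in C57 mice (edgeR adjusted p = 0.00167). Gm10108, a copy of Cycs, was above 300 counts only in SW7, SWG and C572.

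The sequences are shown because they decide which locus a read is assigned to. Gm10039 matched the 408 coding bases of Atp5mc1 at all but 1 base, G385A (parent base, position from 1 at the start codon, copy base). In the lines below the differing bases are in capitals, and both are written along the coding strand from GRCm39.
Atp5mc1: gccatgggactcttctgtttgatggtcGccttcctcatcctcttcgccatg
Gm10039: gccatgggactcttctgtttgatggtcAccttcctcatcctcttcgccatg
Gm6969 matched 331 of 339 aligned positions of Cox7a2l, which encodes the factor that joins complex III with complex IV. It holds 6 bases that the 333-base coding sequence of the reference genome lacks, and T214A lies beside them. C57Bl/6J mice are known to carry a shortened Cox7a2l allele, and the reference genome was made from that strain.
Cox7a2l: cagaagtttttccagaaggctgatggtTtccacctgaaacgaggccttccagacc
Gm6969: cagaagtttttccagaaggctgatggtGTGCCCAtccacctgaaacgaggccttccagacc

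Reads of an OF1 allele that resembles the copy more than the reference gene would be assigned to the copy, so copy and parent reads cannot be told apart in OF1 mice for Gm10039 and Gm6969. Gm5436 differed from the coding sequence of Atp5po at 19 of 639 aligned bases, and the source of its reads was not tested. Copies took 11.6 to 19.7% of the reads of Atp5mc1 plus its copies in OF1 mice, against 0.0290 to 0.115% in C57 mice, and 4.13 to 6.92% for Cox7a2l, against 0 to 0.0672%. Adding the reads of copies changed the log2 fold change of Atp5mc1 in OF1 WT against C57 WT to 0.70 (SE 0.247, edgeR adjusted p = 0.401), which was 0.44 (SE 0.252, edgeR adjusted p = 0.695) without them. For OF1-En1+/- against C57-En1+/- it was -0.23 (SE 0.246) with and -0.51 (SE 0.252) without them. Cox7a2l itself had 9104, 5867 and 7851 counts in OF1-En1+/- and 7096, 6796 and 6890 in OF1 WT mice, against 8025, 7990 and 5497 in C57-En1+/- and 4631, 5415 and 6743 in C57 WT mice. Its log2 fold change in OF1 WT against C57 WT was 0.31, and 0.40 with the copies added. Neither passed the test.

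**Figure D5:**
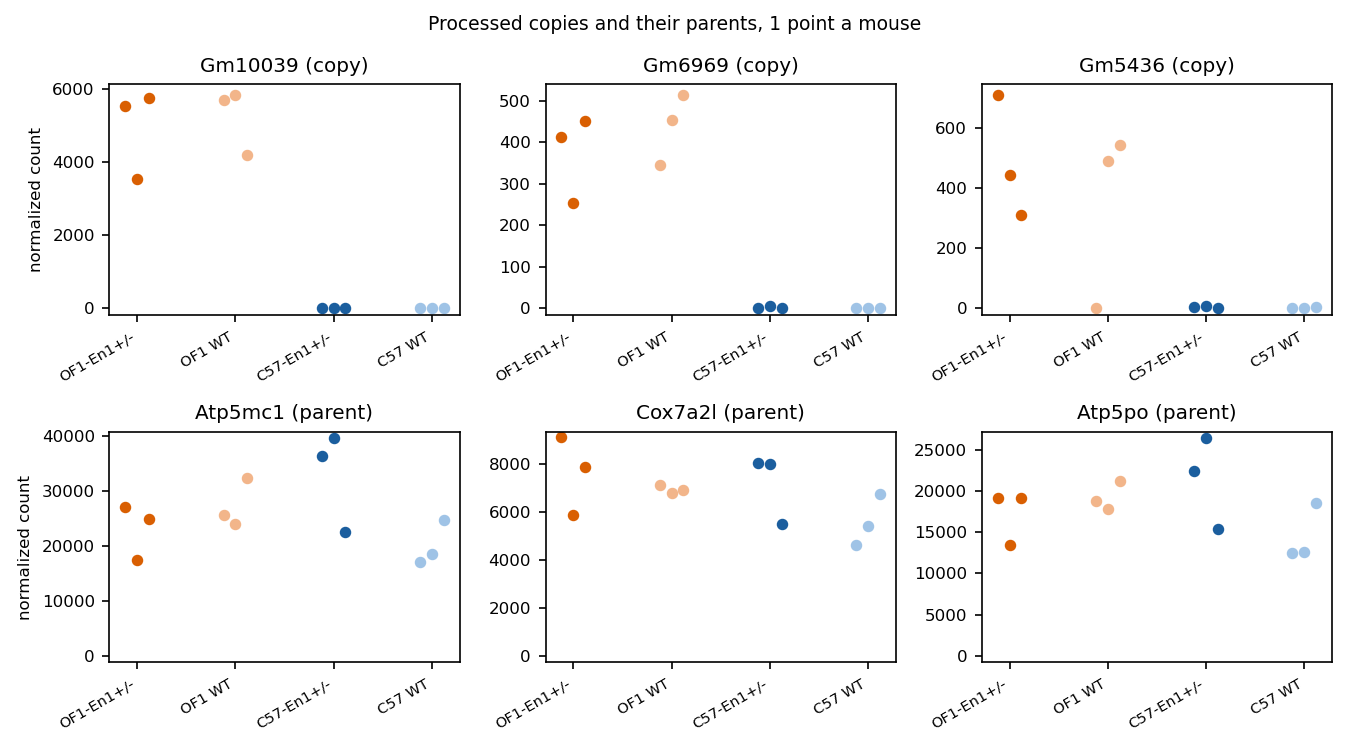
Normalized counts of 3 processed copies (top row) and their parent genes (bottom row), with 1 point a mouse, in OF1-En1+/-, OF1 WT, C57-En1+/- and C57 WT mice. Gm10039 lies between 3536 and 5826 in OF1 mice and at or below 11.0 in C57 mice, while the parents overlap between strains.

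The promoters of 40 members were found in a RefSeq table (build GRCm38.p6, 250 bases before and 50 from the start on). The NRF1 site, as capitalised below with 1 free base in its middle, occurred on either strand in 7 of 40 (17.5%), beside 4.78% of 27025 promoters of the same length. The ETS core CCGGAAG, on either strand, occurred in 14 of 40 (35%), beside 9.12% of all. Cox6a1 held both, with the ETS core on the minus strand of the window as printed, and its window (chr5:115348909-115349208, minus strand) is shown with Cox7a1 (chr7:30183921-30184220, plus strand), the promoter of a tissue isoform that held neither string. Matches are in capitals, and the matches in the Cox6a1 window did not overlap each other.
Cox6a1 promoter: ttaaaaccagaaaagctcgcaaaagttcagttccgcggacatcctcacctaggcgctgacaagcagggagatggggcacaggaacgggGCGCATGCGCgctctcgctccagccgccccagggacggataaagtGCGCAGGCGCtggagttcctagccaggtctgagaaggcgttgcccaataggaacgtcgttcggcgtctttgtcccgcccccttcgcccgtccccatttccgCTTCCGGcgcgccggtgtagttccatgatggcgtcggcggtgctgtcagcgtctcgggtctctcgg
Cox7a1 promoter: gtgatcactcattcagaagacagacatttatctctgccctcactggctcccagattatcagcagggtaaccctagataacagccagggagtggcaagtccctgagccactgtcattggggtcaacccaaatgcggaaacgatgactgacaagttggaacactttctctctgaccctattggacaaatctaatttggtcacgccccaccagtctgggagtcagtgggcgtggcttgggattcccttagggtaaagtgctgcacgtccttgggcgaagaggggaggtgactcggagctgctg
Such matches describe letters and not binding.

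The mitochondrially encoded partners were also measured. All 6 measured transcripts (mt-Cytb of complex III, mt-Co1, mt-Co2 and mt-Co3 of complex IV, mt-Atp6 and mt-Atp8 of complex V) were above every C57 WT mouse in every C57-En1+/- mouse. The same was found for 7.44% of all genes. The log2 fold changes were 0.66 to 1.07, with a median of 0.93, and the median was 0.58 with the length trend removed. C572 was the highest of the 12 mice for all 6 transcripts, and their fold changes without it are not given here. mt-Co3 had 335808, 428062 and 270655 counts in C57-En1+/- mice, against 139530, 191227 and 163275 in C57 WT mice. Its log2 fold change was 1.07 (SE 0.206), with an edgeR adjusted p of 0.520 and a DESeq2 adjusted p of 0.00228. DESeq2 called 4 of the 6 (mt-Cytb, mt-Co1, mt-Co2 and mt-Co3), beside 0.411% of all genes, and edgeR 0, beside 0%. In OF1-En1+/- against OF1 WT their log2 fold changes were -0.19 to 0.34. In OF1-En1+/- against C57-En1+/- all 6 were lower, at -1.39 to -0.56 with a median of -0.72. For 5 of them the groups did not overlap, beside 6.74% of all genes in that direction. edgeR called 1 (adjusted p = 0.0120), beside 0.966% of all genes, and DESeq2 called 2, beside 2.46%. mt-Atp8 passed between strains, with 10823, 7201 and 11059 counts in OF1-En1+/- and 7616, 6041 and 9268 in OF1 WT mice, against 25401, 29011 and 21719 in C57-En1+/- and 12837, 16922 and 18513 in C57 WT mice. OF1 against C57 over both genotypes gave -1.23 (SE 0.164, edgeR adjusted p = 0.00107). mt-Atp8 overlaps mt-Atp6 on the same strand, so reads of the overlap are uncertain.

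Other assembly factors were taken from a list. Of 9 tested complex III factors edgeR called 2 in OF1 against C57 over both genotypes, beside 2.01% of all genes, and both were lower in OF1. Uqcc6 had 202, 163 and 179 counts in OF1-En1+/- and 134, 344 and 176 in OF1 WT mice, against 680, 564 and 478 in C57-En1+/- and 425, 314 and 355 in C57 WT mice. OF1 against C57 over both genotypes gave -1.20 (SE 0.251, edgeR adjusted p = 0.0268). Lyrm7, which hands the Rieske protein to complex III, had 142 to 320 counts in OF1 mice and 360 to 656 in C57 mice, for -1.18 (SE 0.251, edgeR adjusted p = 0.0309). DESeq2 also called Uqcc3 between wild types, with 1175, 2019 and 1524 counts in OF1 WT mice, against 899, 748 and 959 in C57 WT mice (0.86, SE 0.240, edgeR adjusted p = 0.195, DESeq2 adjusted p = 0.0370). Of 20 tested complex IV factors and 6 complex V factors edgeR called 0 in any comparison. Coa4, a complex IV factor, was called by DESeq2 between wild types, with 1.55 (SE 0.362, edgeR adjusted p = 0.0841) for OF1 WT against C57 WT.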

How the data were processed

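Laser-microdissected substantia nigra was sequenced from 12 mice, with SMART-Seq v4 amplification and unstranded libraries. The authors quantified transcripts with Salmon against GENCODE mouse transcripts of GRCm39, and deposited estimated counts and TPM per transcript. Here the estimated counts were summed per gene (99.1% of 140790 transcripts matched the annotation) then rounded to integers. The low-count filter asked for an average of 10 or more normalized counts, and the genes left were tested with the quasi-likelihood test of edgeR 4.0.16 in R 4.3.3, with TMM factors, 1 mean per group over all 12 libraries and Benjamini-Hochberg adjustment over 18017 genes. Levels between genes used the deposited TPM. DESeq2 1.42.0, limma 3.58.1 (voom), other filters, scalings and length offsets, copies added and libraries left out were the alternatives. The removal of the length trend was chosen after seeing the data. Members and lists were chosen with earlier results of these data known. Values in every mouse are given for members called by any tool, the isoforms with their partners and the 3 smallest p-values of each comparison, and levels for the highest and lowest member of each complex. Copies are pseudogenes matching at least 60% of a member's coding sequence. Scripts were tested on simulated data. Each library is 1 mouse, so p-values measure the spread between mice. A marker of the subthalamic list is not reported here and was left out of its sum.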

Additional observations from a re-analysis of the deposited data

Results flagged for a closer look

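Atp5if1, Atp5mj and Cox20 had opposite genotype differences in the strains, with every C57-En1+/- mouse above every C57 WT mouse and every OF1-En1+/- mouse below every OF1 WT mouse. This pattern was found in 94 of 18017 genes tested in either direction (0.522%), a share over genes of all lengths. Atp5if1, Atp5mj and Cox20 are short, at 248, 116 and 189 bases effective length. The 568 other genes of up to 300 bases had a median log2 fold change of 0.52 in C57-En1+/- against C57 WT and -0.31 in OF1-En1+/- against OF1 WT. The effect in C57 minus that in OF1 was 1.31 for Atp5if1, 1.49 for Atp5mj and 0.97 for Cox20 on the log2 scale, beside a median of 0.90 for the 568 other genes of up to 300 bases. With the length trend removed it was 0.39 for Atp5if1 and fell for Cox20 as given above. The 5 membrane accessory subunits, Atp5mj among them, then had a median of 0.29. The edgeR adjusted p of the interaction was 0.655 for each, so none passed, while DESeq2 called Atp5if1 alone (adjusted p = 0.0490).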

How the results depend on the processing

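edgeR called 0 members in every comparison under every alternative run with it, also when each library was left out (0 to 0), and limma voom called 0. DESeq2 called 1 member, Cox18, in OF1-En1+/- against C57-En1+/-, and 1 member, Atp5if1, in the interaction. With offsets for transcript length DESeq2 called 1 member in C57-En1+/- against C57 WT (Cox6b1, 0.96, adjusted p = 0.0496, beside 0.361% of all genes) and 1 in OF1-En1+/- against C57-En1+/- (Cox18, 0.76, adjusted p = 0.0338, beside 2.35%). The cause was not tested. With the length trend removed, chosen after seeing the data, the median over members was 0.16 in C57-En1+/- against C57 WT, 0.18 in OF1 WT against C57 WT and 0.20 in the interaction. Without SW22 and C572S the interaction median was 0.67, and without SW22, C572S and C572 it was 0.47, with 0.02 in OF1-En1+/- against C57-En1+/-. Leaving out each library in turn gave medians of -0.30 to -0.02 for OF1-En1+/- against OF1 WT, 0.53 to 0.88 for C57-En1+/- against C57 WT, 0.53 to 0.70 for OF1 WT against C57 WT, -0.52 to -0.14 for OF1-En1+/- against C57-En1+/-, 0.04 to 0.22 for OF1 against C57 and 0.71 to 1.15 for the interaction, and a subunit to assembly factor ratio of 22.8 to 24.5. Of the counts of calls, medians and ratio under the alternatives, 263 stayed close to their values and 10 moved, and those 10 are the ones given above. Of the values of single named members, 386 kept their direction and side of the threshold, 4 passed it only under an alternative and none reversed. No paired analysis was possible because the labels carry no shared replicate numbers. With 3 mice a group and libraries of unequal tissue content, a missed threshold does not show equal levels.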
